A study of Mus musculus with 3 samples.

Results

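The genes examined here are the matrix metalloproteinases (MMPs), the ADAMTS proteinases and the tissue inhibitors of metalloproteinases (TIMPs) of the mouse. The rule that picked them used the symbol alone (Mmp or Adamts with a number, Timp with a digit). Earlier results of these data were known when the members were chosen. The RefSeq table for GRCm38.p6 lists 46 such genes, and 42 of them had a probe that could be named through its accession, among 18951 named genes on the array. These were 21 MMP, 17 ADAMTS and 4 TIMP genes, read by 63 probes. Mmp1b, Mmp27, Adamts6 and Adamts17 had no matched probe and were not analysed here.

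MMPs are zinc-dependent endopeptidases that are made as inactive precursors, are secreted or held at the cell membrane, and cleave collagens, other matrix proteins, cytokines and each other. ADAMTS enzymes are secreted relatives with thrombospondin repeats that cut large proteoglycans, trim procollagens or process single substrates such as von Willebrand factor. TIMPs are small secreted proteins that occupy the active site of MMPs and, for Timp3, also of ADAMTS enzymes. Fibroblasts and macrophages in culture are familiar sources of these proteins, while thyroid follicles are enclosed by a basement membrane that such enzymes can degrade.

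The study holds 3 cultures of ICR mouse cells, each measured on 1 one-colour array, with primary thyroid cells as the control for induced fibroblasts. Embryonic fibroblasts (E13.5) were infected in 2 rounds with retroviruses for the thyroid factors Nkx2.1, Pax8 and Foxe1 and the pluripotency factors Sox2, Oct3/4, c-Myc and Klf4 (the 7-factor culture) or for the same genes and Hhex (the 8-factor culture). Both were harvested on day 21, having spent 1 week in DMEM low glucose with serum and their last 2 weeks in DMEM/F12 with thyroid stimulating hormone, potassium iodide and N2/B27 supplements. The primary culture was follicular cells of adult mice, kept for 1 week in that medium. The labels name no step that purified cells before RNA extraction, whether animals were pooled, or which of 2 extraction kits served which culture, and no uninfected fibroblasts were analysed here. With 1 array per group there is no replicate check and no p-value, and the number of arrays limits the precision.

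Levels below are log2 processed signals relative to the 75th percentile of their array. A difference of 2-fold or more is called higher or lower. The scanner error, an estimate for single spots that leaves out variation between cultures, was 0.20 to 0.51 on the log2 scale for differences of the members. The primary array was dimmer at the 75th percentile (504 intensity units against 2189.9 and 2535), and 64.2% of its spots were well above background against 78.2% on each induced array. The lowest level that could count as well above background was therefore -5.15 in the primary culture and -7.78 and -7.91 in the 7-factor and 8-factor cultures. Spike-in controls did not show the same dimness: over 8 probes, the geometric mean ratio of their signals to those on the primary array was 0.958 for the 7-factor and 0.446 for the 8-factor array. The primary array was also on another slide and in another scan, so slide and culture cannot be told apart. Without scaling, every difference measured against it would lie 2.12 (7 factors) or 2.33 (8 factors) higher on the log2 scale.

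Markers fixed for the labelled cell types were read first. All 8 thyroid follicular markers with a probe were well above background in the primary culture, and all 8 were at least 2-fold lower in each induced culture, with medians of -7.86 and -8.10. These markers include the delivered factors Pax8, Nkx2-1 and Foxe1. Whether their probes read the viral transcripts was not tested. The Foxe1 difference with 8 factors (-2.08) would turn positive without scaling. Iyd, which recycles iodide, was not well above background in either induced culture. The primary culture was not free of other cells by its markers: all 9 macrophage markers with a probe were well above background, at levels from -1.03 to 4.44. In the 7-factor and 8-factor cultures the same 9 spanned -7.06 to -4.02 and -8.15 to -4.35. Fibroblast markers were well above background on every array (9 of 9), with median levels of 4.83, 4.26 and 2.16 in the 7-factor, 8-factor and primary cultures. In such bulk RNA, fewer cells of a type and less RNA per cell cannot be told apart.

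Most of the family could be read in each culture. Of the 42 members, 34 were well above background in the 7-factor, 35 in the 8-factor and 34 in the primary culture. On all 3 arrays 30 were, and on none Mmp20 (enamelysin, a tooth enamel protease), Mmp21 and the membrane-anchored Mmp25 of leukocytes.

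**Figure D1:**
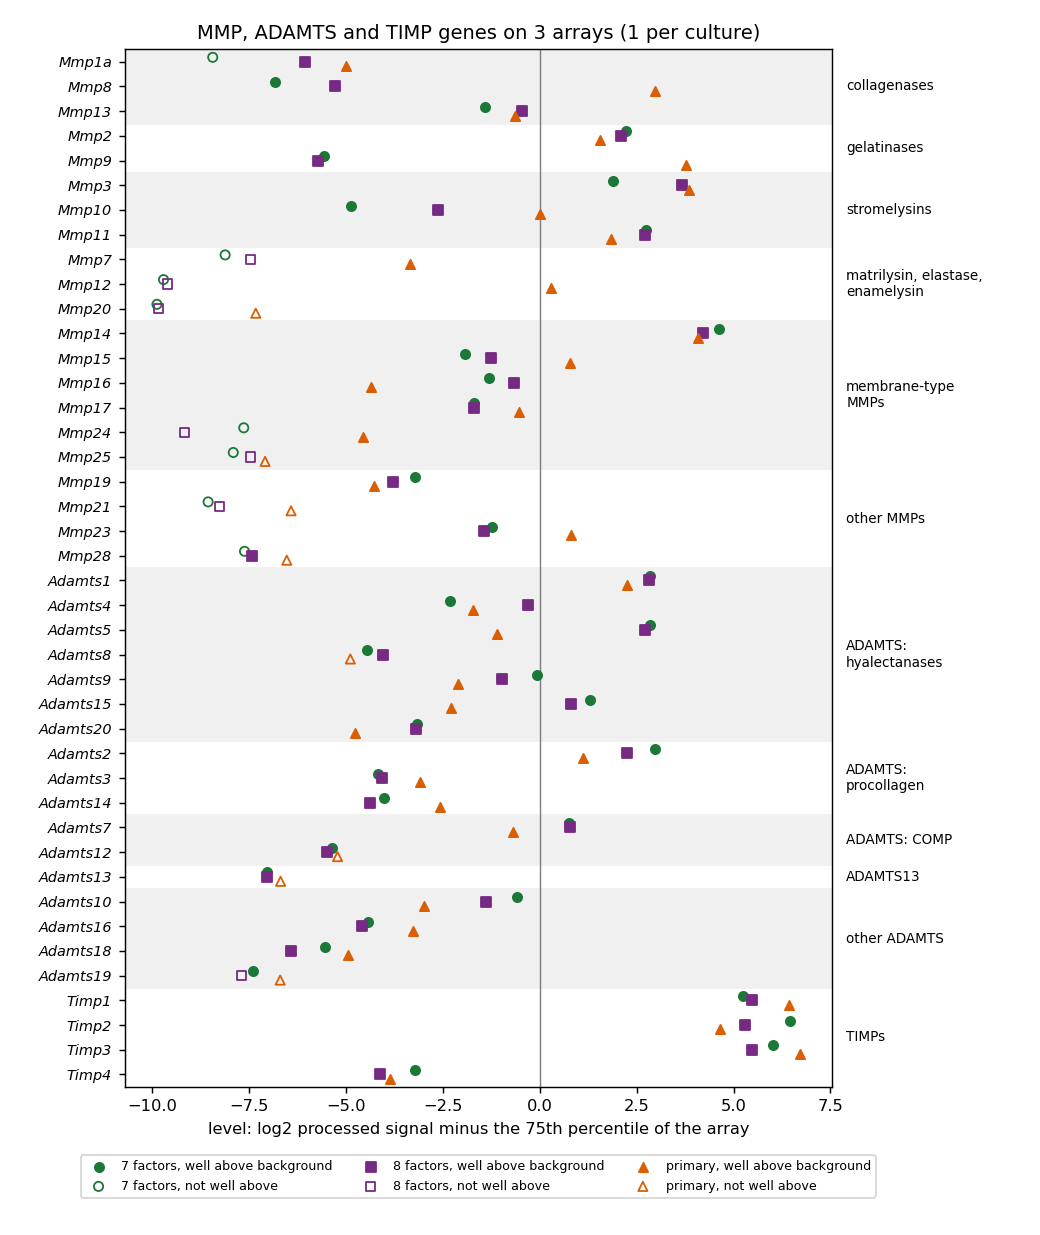
Levels of the 42 genes on 3 arrays, as log2 processed signal minus the 75th percentile of the array (horizontal axis), 1 point per culture and grouped by role. Filled points are well above background and open points are not; the primary values of Mmp8, Mmp9 and Mmp12 (2.98, 3.78 and 0.28) stand far to the right of both induced cultures. Points of different genes come from different probes and are not comparable with each other.

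Against primary cells, the 7-factor culture had 38 members that could be compared, 10 higher (26.3%) and 15 lower (39.5%), beside 19.1% higher and 27.1% lower of all 16152 genes compared. The 8-factor culture had 9 of 38 higher (23.7%) and 14 lower (36.8%), beside 17.8% and 27.5% of 16161 genes. Of these, 8 genes were higher and 12 lower in both induced cultures, which share the same primary array, and none went opposite ways past 2-fold. The families split: 11 of 17 MMPs were lower and 2 higher in the 7-factor culture, while 7 of 17 ADAMTS genes were higher and 3 lower. In the 8-factor culture the counts were 10 lower and 1 higher of 18 MMPs, and 8 higher and 3 lower of 16 ADAMTS genes. Median differences over the genes compared were -2.04 and -1.12 for MMPs and 0.43 and 0.98 for ADAMTS genes, against 0.00 over all genes in each comparison. These counts turn on the scaling. With median scaling the members stood at 11 higher and 11 lower in each induced culture. All genes then stood at 4218 higher and 3694 lower of 16152 (7 factors) and 3680 and 3894 of 16161 (8 factors). Without scaling the members stood at 22 higher and 5 lower (7 factors) and 26 higher and 5 lower (8 factors). Most genes were then higher too: 11208 higher and 1140 lower of 16152 (7 factors), and 11715 and 978 of 16161 (8 factors).

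**Figure D2:**
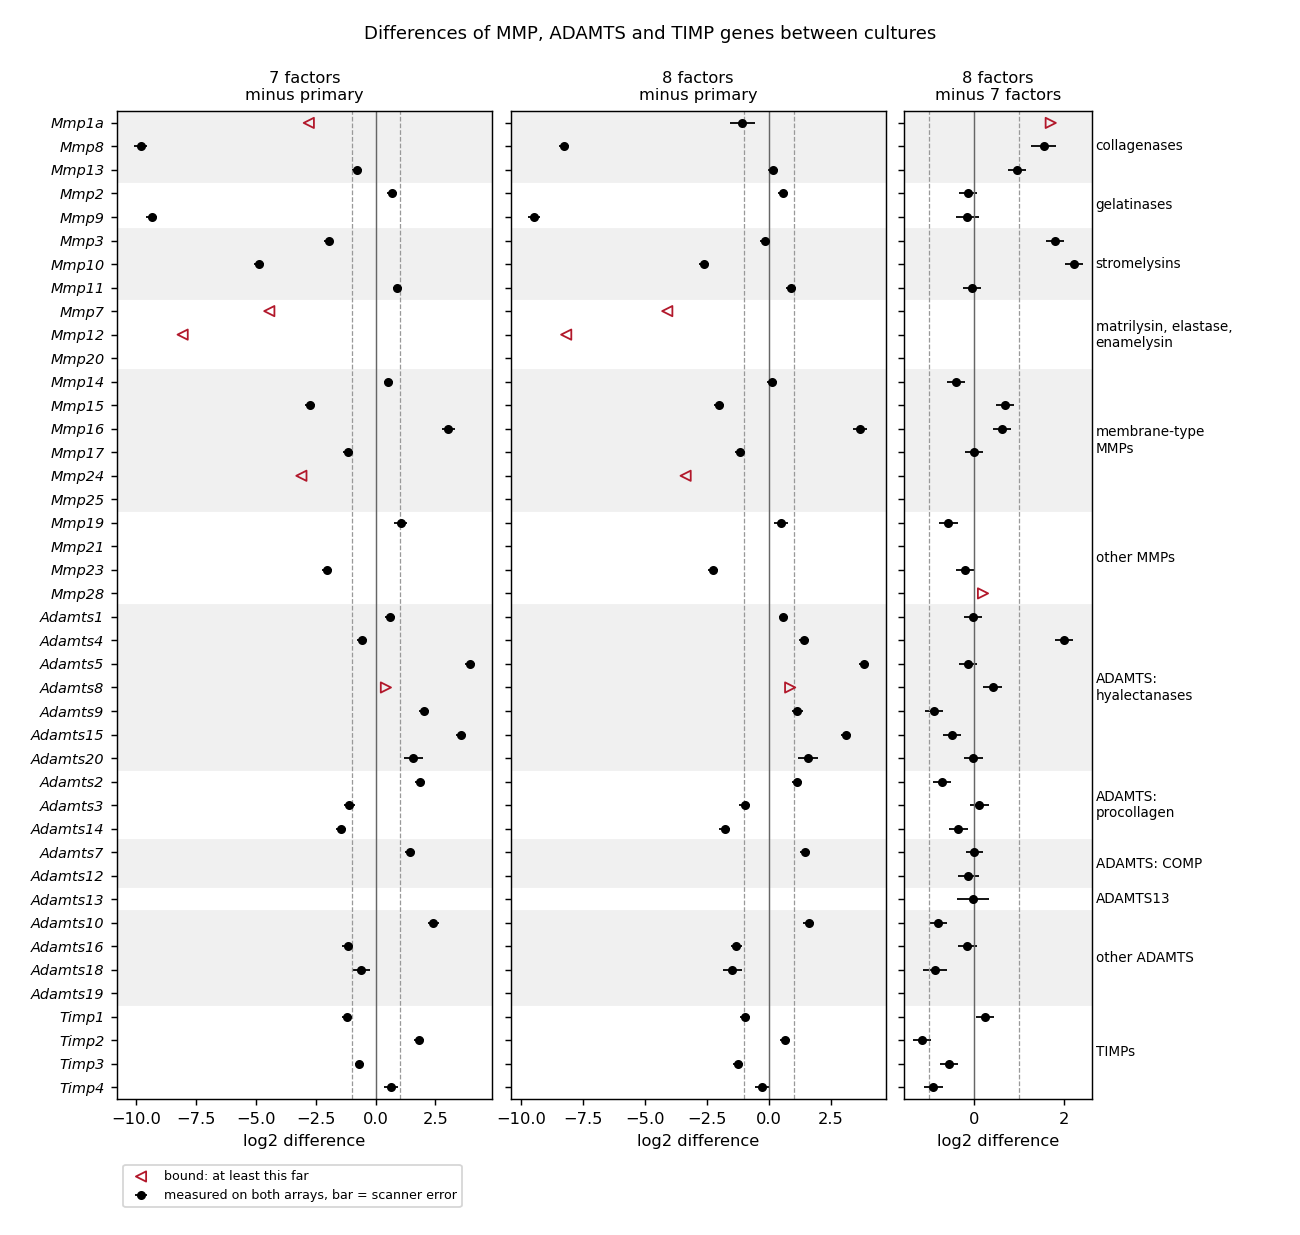
Log2 differences of the members for 7 factors minus primary, 8 factors minus primary and 8 minus 7 factors, grouped by role. Points are measured on both arrays with the scanner error as a bar, triangles are bounds that point away from 0, dashed lines mark 2-fold, and genes without a mark were not well above background on either array, had a bound of 0, or had probes that differed in detection. MMPs reach -9.82 on the left while Adamts5 reaches 3.95 on the right.

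Collagenases cut the triple helix of fibrillar collagens. Mmp8, the collagenase stored in neutrophils, had levels of -6.84, -5.29 and 2.98 in the 7-factor, 8-factor and primary cultures, which correspond to signals of 19.1, 64.6 and 3987 intensity units. The primary culture thus stood alone at the high end. The differences were 906-fold lower with 7 factors (log2 -9.82, scanner error 0.27) and 310.3-fold lower with 8 factors (log2 -8.28, scanner error 0.21), with 12 and 42 genes showing a more negative difference among the 14055 and 14068 measured on both arrays. With normexp its differences were -7.35 and -6.91 on the log2 scale. Mmp13, the main collagenase of mouse bone and of remodelling tissue, had levels of -1.41, -0.46 and -0.63, and its differences from primary cells (-0.77 and 0.17) stayed under 2-fold. Mmp1a, a mouse counterpart of the interstitial collagenase, was dim throughout, at -8.44 (not well above background), -6.07 and -4.99. It was at least 6.92-fold lower with 7 factors and 2.11-fold lower with 8 factors, but with a common floor for all arrays both differences were -0.16 on the log2 scale, and without scaling they were -0.67 and 1.25.

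The gelatinases, which degrade denatured collagen and basement membrane collagen IV, went separate ways. Mmp9 had levels of -5.57, -5.72 and 3.78, or signals of 45.9, 47.9 and 6908, again with the primary culture alone at the top. It was 653-fold lower with 7 factors (log2 -9.35, scanner error 0.22) and 725-fold lower with 8 factors (log2 -9.50, scanner error 0.24), its other probe gave -10.92 and -9.51, and normexp gave -7.78 and -7.91. Mmp2, the constitutive gelatinase of mesenchymal cells, was bright on every array (2.23, 2.09 and 1.54) and differed from primary cells by 0.69 and 0.55.

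Matrilysin and macrophage elastase were read well above background in the primary culture alone. Mmp12, the elastase of macrophages, had a level of 0.28 there (signal 611), against -9.71 and -9.60 in the induced cultures (signals 2.62 and 3.27). It was at least 267-fold lower with 7 factors and at least 292-fold lower with 8 factors; on the log2 scale these bounds were -5.94 and -5.86 without scaling, -5.25 and -5.44 with normexp and -5.43 and -5.43 with a common floor. Mmp7, matrilysin, a small protease of glandular epithelium, had levels of -8.12, -7.46 and -3.35 and lay at least 21.6-fold (7 factors) and at least 17.3-fold (8 factors) under the primary level; with a common floor both bounds were -1.80 on the log2 scale. Macrophage markers were lower too: 9 of 9 in each induced culture, with medians of -7.84 and -8.40, beside 27.1% and 27.5% of all genes. This was not particular to macrophage markers. Thyroid follicular (8 of 8) and epithelial markers (7 of 7, medians -3.47 and -3.20) were also lower in each. So were 4 of 5 osteoclast markers in each, and 3 and 5 of 6 endothelial ones, with 1 endothelial marker higher. Of fibroblast markers 0 were lower, and of 7 cartilage and bone markers compared 1 and 2 were. Of 9 neutrophil markers with a probe, 6 were well above background in the primary culture, and the list spanned -7.48 to 3.28 there. The neutrophil list had 5 of 7 genes compared lower with 7 factors (71.4%, beside 27.1% of all genes). With 8 factors the list had 4 of 6 lower (66.7%, beside 27.5%) and 1 higher (16.7%, beside 17.8%). Its granule genes differed among themselves: Ltf stood at 3.28 in the primary culture and was 20.7-fold and 10.2-fold lower in the induced ones, Mpo stood at -3.77 and differed by -0.90 and -1.08, and Elane, Camp and Ngp were not well above background in the primary culture. Without scaling, some of the markers called lower would turn positive: Krt8, Oscar and Acan in both cultures and S100a9 with 7 factors. With 8 factors Foxe1, Cdh5, Kdr, Sox9 and Mpo would too. The part of these cell types in the MMP differences was not tested.

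Stromelysins have broad substrates and can activate other MMPs. Mmp3, stromelysin 1, had levels of 1.89, 3.68 and 3.85, so that the 8-factor and primary cultures lay together and the 7-factor culture below. It was 3.89-fold lower with 7 factors (log2 -1.96, scanner error 0.20; 0.16 without scaling) and differed by -0.16 with 8 factors. Mmp10, stromelysin 2, had levels of -4.87, -2.64 and 0.01, in 3 separate steps, and was 29.4-fold lower with 7 factors and 6.25-fold lower with 8 factors. Both of its differences kept their sign without scaling (-2.76 and -0.31) and with normexp (-3.86 and -2.25). Mmp11, stromelysin 3, a stromal protease activated inside the cell, was at 2.74, 2.71 and 1.83, with differences of 0.91 and 0.88.

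Membrane-type MMPs act at the cell surface, and Mmp14 is the activator of pro-Mmp2. Mmp14 was bright on each array (4.62, 4.22 and 4.09) and differed from primary cells by 0.53 and 0.13, while its dimmer probe differed by -1.07 and -0.49. Mmp16 had levels of -1.30, -0.67 and -4.35, both induced cultures lying above the primary one. It was 8.25-fold higher with 7 factors (log2 3.04) and 12.7-fold higher with 8 factors (log2 3.67), the largest differences on the higher side among the MMPs compared. With normexp background correction these became 0.88 and 1.58, and averaging its probes gave 0.67 and 1.49; the other probe was not well above background on any array. Mmp15, a membrane-type MMP of epithelia among other tissues, had levels of -1.94, -1.25 and 0.79 and was 6.64-fold lower with 7 factors and 4.11-fold lower with 8 factors, but differed by -0.61 and 0.29 without scaling. Mmp24 was near background at -7.64, -9.16 and -4.55 and was lower by at least 8.56-fold (7 factors) and at least 10.3-fold (8 factors); raising the floor of every array to the same level reduced both bounds to -0.60 on the log2 scale. Mmp17, held by a lipid anchor, was 2.23-fold and 2.24-fold lower on its brightest probe (0.96 and 1.16 without scaling), and its other probe gave -2.60 and -2.38.

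Among the remaining MMPs, Mmp23, which lacks the usual cysteine switch, had levels of -1.24, -1.45 and 0.80. It was 4.11-fold and 4.75-fold lower in the induced cultures by this scaling, yet its signals were close on all arrays (928, 931 and 878 intensity units), so that without scaling both differences were 0.08. Mmp19 was 2.07-fold higher with 7 factors and differed by 0.48 with 8 factors, and the former turned to -0.83 with normexp. Mmp28 was well above background with 8 factors alone, at -7.42.

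Of the 7 ADAMTS genes for enzymes that cut aggrecan and versican, 4 were higher with 7 factors, 5 with 8, and 0 lower in either. Those higher were 57.1% and 71.4%, beside 19.1% and 17.8% of all genes. Of all genes 27.1% and 27.5% were lower. Adamts5, the main aggrecan-cleaving enzyme of mouse cartilage, had levels of 2.85, 2.71 and -1.10 (signals 15773, 16639.9 and 235), with the primary culture alone at the low end. It was 15.5-fold higher with 7 factors (log2 3.95, scanner error 0.20) and 14.1-fold higher with 8 factors (log2 3.82, scanner error 0.20), and 123 and 116 genes had a higher measured difference. Its other probe gave 5.15 and 4.52, but the primary array did not read that probe well above background. Adamts15 had levels of 1.29, 0.81 and -2.29 and was higher by 3.58 and 3.10 on the log2 scale (2.79 and 2.44 with normexp). Adamts9, which also serves in secretion and cilium formation, had levels of -0.08, -0.97 and -2.11 and was 4.09-fold and 2.21-fold higher; averaging with its near-background probe gave 0.73 and 0.14. Adamts20 was 2.98-fold and 2.95-fold higher, but with normexp (-0.46 and -0.41) and on the mean of its probes (-0.44 and -0.73) the sign turned. Adamts1, a proteoglycan-cleaving enzyme that can be induced by hormones in the ovary, was at 2.84, 2.82 and 2.24 and differed by 0.60 and 0.58, while its other probe differed by -1.08 and -0.26. Versican (Vcan), a substrate of this group, was 6.04-fold and 5.82-fold higher, while aggrecan (Acan) was 2.24-fold and 3.85-fold lower. The aggrecan value turns positive without scaling for 7 factors and for 8 factors, since both differences are smaller than the shift.

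Adamts4, an aggrecan-cleaving enzyme that inflammatory cytokines can induce, had levels of -2.31, -0.31 and -1.73, so the primary culture lay between the induced ones. It differed by -0.58 with 7 factors and was 2.67-fold higher with 8 factors, a value that normexp lowered to 0.51 on the log2 scale. Adamts8 was read well above background in the induced cultures alone, and its bounds stayed under 2-fold.

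Of the procollagen N-proteinases, which trim the amino end of fibrillar procollagens, Adamts2 had levels of 2.97, 2.25 and 1.12 and was 3.59-fold and 2.18-fold higher. Its other probes disagreed with each other: they gave 4.41 and 3.89 in one case and -1.57 and -0.51 in the other. Adamts14 was 2.73-fold and 3.49-fold lower and Adamts3 2.15-fold lower with 7 factors by this scaling, while Adamts3 differed by -0.98 with 8 factors. Without scaling Adamts14 stood at 0.67 and 0.53, and Adamts3 at 1.01 and 1.35. Adamts7, which cleaves cartilage oligomeric matrix protein (COMP), was 2.72-fold and 2.73-fold higher, with 0.87 and 0.87 on its other probe. Adamts12, its close relative, and Adamts13, the enzyme that cleaves von Willebrand factor, were not well above background in primary cells.

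In the rest of the ADAMTS family, Adamts10, which is linked to fibrillin microfibrils, had levels of -0.59, -1.40 and -3.00. It was 5.30-fold higher with 7 factors and 3.02-fold higher with 8 factors; its other probe gave 1.08 and 1.34, and normexp lowered the differences to 1.26 and 0.27. Adamts16 was 2.25-fold and 2.49-fold lower, values that became 0.95 and 1.01 without scaling. Adamts18 differed by -0.61 with 7 factors and was 2.79-fold lower with 8 factors (0.85 without scaling). Its primary level (-4.94) lay near the lowest that could count as well above background there (-5.15). With a common floor both differences were -0.21, with quantile normalization 0.07 and -0.70, and with normexp -1.94 and -2.36. The probes of Adamts19 differed in detection on the 8-factor array, so that it was compared with 7 factors against primary cells alone, where its bound was 0.

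Of the 4 TIMPs, 1 was higher and 1 lower with 7 factors (25.0% each, near the 19.1% and 27.1% of all genes). With 8 factors 0 were higher, beside 17.8% of all genes, and 1 lower (25.0%, near the 27.5% of all genes). Timp1, an inducible inhibitor, had levels of 5.24, 5.48 and 6.44, the primary culture being the highest. It was 2.30-fold lower with 7 factors (log2 -1.20, 0.92 without scaling) and differed by -0.96 with 8 factors, and its other probe gave -2.26 and -1.27. Timp2, which also takes part in the activation of pro-Mmp2 by Mmp14, had levels of 6.45, 5.29 and 4.65, the 7-factor culture being the highest. It was 3.50-fold higher with 7 factors (log2 1.81) and differed by 0.64 with 8 factors. Timp3, which is bound to the matrix, had levels of 6.02, 5.47 and 6.71 and differed by -0.68 with 7 factors, while it was 2.36-fold lower with 8 factors (log2 -1.24, 1.09 without scaling). Timp4 was dim (-3.22, -4.13 and -3.86) and differed by 0.64 and -0.27; with normexp correction these were -0.92 and -1.61.

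**Figure D3:**
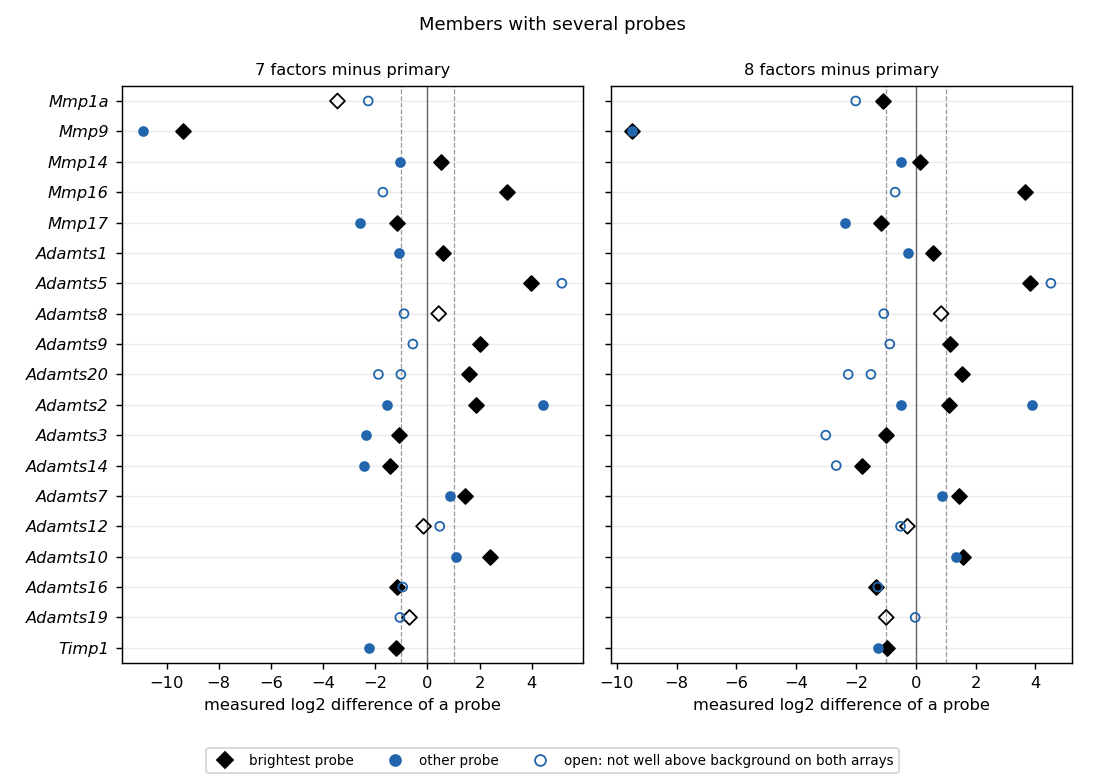
Measured log2 differences from the primary culture for every probe of the 19 members with several probes, 7 factors on the left and 8 factors on the right. Diamonds are the brightest probe, which represents the gene, circles the others, and open marks were not well above background on both arrays. The probes of Mmp9 lie together near -10, while those of Adamts2 fall on both sides of 0.

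The 8-factor culture was set against the 7-factor culture to show the difference that came with adding Hhex, a homeobox gene needed for thyroid and liver development. These arrays share a slide and a scan, but their spike-in signals differed. Over 8 probes the ratio of 8 to 7 factors was 0.466, while it was 1.16 at the 75th percentile. Scaling to the spike-ins was not tested. Of 35 members compared, 5 were higher (14.3%) and 1 lower (2.86%), beside 4.54% higher and 4.04% lower of all 16260 genes. Mmp10 was 4.71-fold higher (log2 2.23, scanner error 0.21), Adamts4 3.99-fold (log2 2.00, scanner error 0.20), Mmp3 3.47-fold (log2 1.80, scanner error 0.20) and Mmp8 2.92-fold (log2 1.55, scanner error 0.28). Mmp1a, not well above background with 7 factors, was at least 3.28-fold higher. With normexp correction Mmp8 and Mmp1a differed by 0.44 and 0.41, and with a common floor both were at 0.00, so that 3 members were higher in either case. The lower member was Timp2, at 2.24-fold (log2 -1.16, scanner error 0.20; -0.96 with quantile normalization and -0.95 without scaling). Adamts9, Adamts18, Adamts10 and Timp4 differed by -0.89, -0.87, -0.81 and -0.91. The brightest probe of Mmp9 differed by -0.15 and its other probe by 1.41.

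Mmp10, Mmp3, Mmp8 and Mmp1a are neighbours. They belong to a run of 10 MMP genes on chromosome 9, from Mmp13 to Mmp7, in which no other protein-coding gene lies by the RefSeq table. Of the 8 with a probe, 5 could be compared between the induced cultures. Of these, 4 were higher with 8 factors, beside 4.54% of all genes, and Mmp13 was 1.93-fold higher (log2 0.95, scanner error 0.20). The median over these 5 was 1.71, and over the 30 other members compared it was -0.14, with Adamts4 the only one of them called higher. The run is described because 4 members called higher lie in it, so its share and median are no separate test. With normexp the cluster median was 0.73 and with a common floor 0.95, with 2 of the 5 genes called higher in either case, and with -0.10 and -0.03 over the other members. The nearest named genes on either side, picked after their values were seen, stayed under 2-fold, apart from Ddi1, which was not well above background on either array: Dync2h1 and Dcun1d5 differed by -0.92 and -0.14, and Tmem123, Birc2 and Birc3 by 0.23, 0.30 and 0.03. Against primary cells, 6 of 7 cluster genes compared were lower with 7 factors and 5 of 7 with 8 factors, and none were higher. Of all genes 27.1% and 27.5% were lower and 19.1% and 17.8% higher. Without scaling, 4 of 7 cluster genes were lower and 1 higher with 7 factors, and 3 lower and 3 higher with 8. Of all genes, 1140 were then lower and 11208 higher of 16152 with 7 factors, and 978 and 11715 of 16161 with 8. Mmp3 and Mmp1a lost the 7-factor call and Mmp10 and Mmp1a the 8-factor call.

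**Figure D4:**
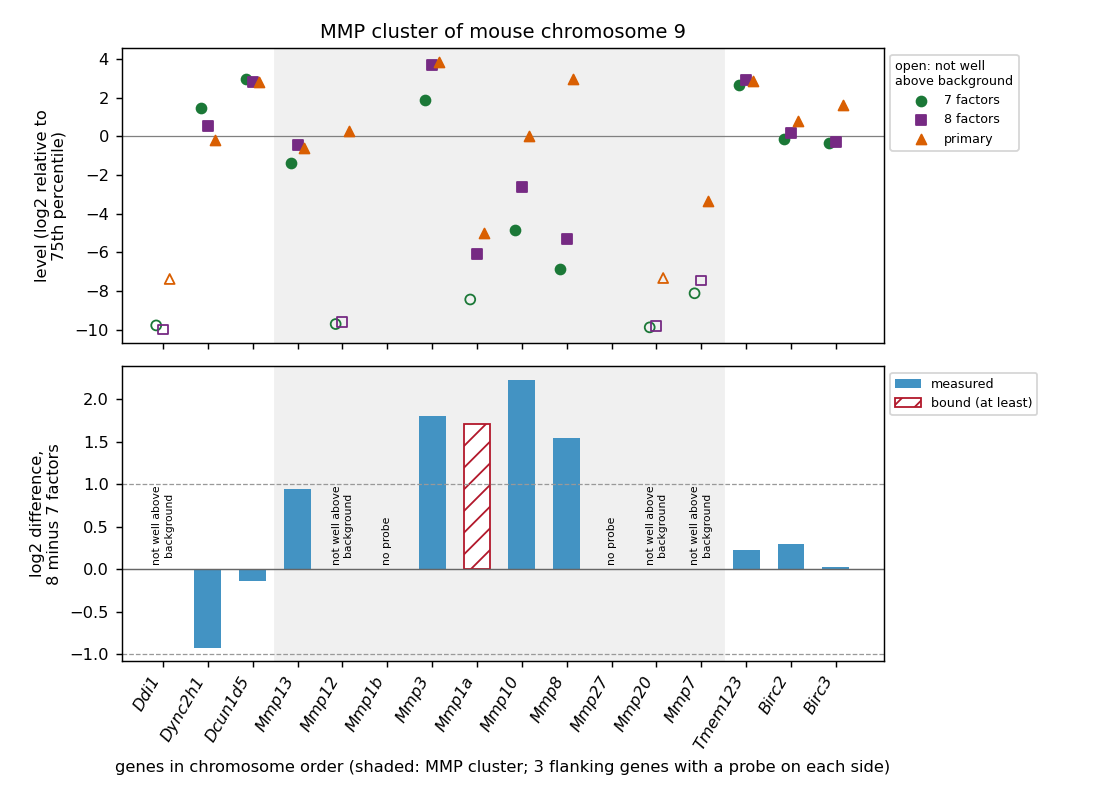
The MMP genes of chromosome 9 (shaded) and 3 flanking genes with a probe on each side, in chromosome order. The upper panel gives levels in the 3 cultures (open points not well above background), and the lower panel the log2 difference of 8 minus 7 factors, with a hatched bar for a bound. Bars inside the cluster run from 0.95 to 2.23, and those of flanking genes from -0.92 to 0.30.

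The promoters of these neighbours are shown because 4 of these genes were higher with 8 than with 7 factors. Each line gives the 120 bases before the RefSeq start (GRCm38.p6), read 5′ to 3′ along the gene, with capitals for the AP-1 heptamer TGAGTCA or its reverse complement TGACTCA, the sequence bound by Fos and Jun dimers.
Mmp13, chr9:7272394-7272513, plus strand: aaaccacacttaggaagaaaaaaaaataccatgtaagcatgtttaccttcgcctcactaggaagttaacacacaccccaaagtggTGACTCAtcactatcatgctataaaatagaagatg
Mmp3, chr9:7445702-7445821, plus strand: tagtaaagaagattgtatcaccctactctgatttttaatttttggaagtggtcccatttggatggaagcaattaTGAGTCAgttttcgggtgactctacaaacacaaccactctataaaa
Mmp1a, chr9:7464021-7464140, plus strand: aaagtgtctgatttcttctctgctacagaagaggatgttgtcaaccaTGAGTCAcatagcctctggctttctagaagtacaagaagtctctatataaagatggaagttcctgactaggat
Mmp10, chr9:7502222-7502341, plus strand: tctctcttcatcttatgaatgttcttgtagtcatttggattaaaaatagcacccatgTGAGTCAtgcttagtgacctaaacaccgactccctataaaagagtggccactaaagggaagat
Mmp8, chr9:7558309-7558428, plus strand: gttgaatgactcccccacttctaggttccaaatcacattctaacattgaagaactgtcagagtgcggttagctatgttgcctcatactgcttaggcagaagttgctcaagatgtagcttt
The heptamer began 35 bases before the start in Mmp13, 46 in Mmp3, 73 in Mmp1a and 63 in Mmp10, and these letters do not occur in the 250 bases searched for Mmp8, which was higher with 8 factors as well. Over the 250 bases, searched on both strands, 7 of 10 cluster genes held it at 1 or more of their listed starts (also Mmp1b, Mmp7 and Mmp12), and 0 of 22 other members with a promoter in the table. Of all 27025 genes in the table, 5.16% did. Mmp1b had no probe, and Mmp7 and Mmp12 were not well above background in either induced culture. A match describes the letters of the window and does not show binding.

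Genes for AP-1 and ETS factors, a list of 12, had 1 gene higher with 8 than with 7 factors (the ETS gene Etv4, 2.16-fold; 8.33%, beside 4.54% of all genes) and 0 lower. The Fos gene differed by -0.95 and Jun by -0.29. Against primary cells 6 of 12 were lower (beside 27.1% and 27.5% of all genes) and 1 higher (8.33%, beside 19.1% and 17.8%) in each induced culture, with medians of -0.97 and -1.02. Fosl1, an AP-1 partner, was 9.88-fold and 9.18-fold lower, and Fos 5.42-fold and 2.81-fold higher. Of the lower AP-1 and ETS genes, Fosl1 in both cultures and Etv5 with 7 factors would stay below 0 without scaling.

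Plasminogen activation, which can set off MMP precursors, had 6 of 11 genes lower and 1 higher with 7 factors, and 7 lower and 1 higher with 8 (medians -1.70 and -1.51). Those lower were 54.5% and 63.6%, beside 27.1% and 27.5% of all genes, and those higher 9.09% in each, beside 19.1% and 17.8%. The urokinase gene Plau was 9.59-fold and 14.5-fold lower. Serpine2, an inhibitor of thrombin and plasminogen activators, was the higher one, at 5.07-fold and 4.22-fold. Without scaling, Plaur and Anxa2 would turn positive in both cultures and Plat and Serpinb2 with 8 factors, while Plau and Plg would stay below 0 in both.

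Other inhibitors and cofactors had 6 of 11 genes higher and 3 lower with 7 factors, and 8 higher and 2 lower with 8 (medians 1.97 and 1.83). Those higher were 54.5% and 72.7%, beside 19.1% and 17.8% of all genes, and those lower 27.3% and 18.2%, beside 27.1% and 27.5%. Reck, a membrane-anchored MMP inhibitor, was 8.28-fold and 5.90-fold higher, and the procollagen proteinase enhancers Pcolce and Pcolce2 were 7.08-fold and 44.3-fold higher with 7 factors and 4.77-fold and 24.5-fold higher with 8. Fbln1, a cofactor of Adamts1, was 15.1-fold and 21.5-fold higher. On the lower side, A2m was 6.76-fold and 7.74-fold lower and Sdc4 2.55-fold and 6.05-fold lower. Without scaling, Sdc4 would turn positive with 7 factors. Tfpi2, a serine protease inhibitor of the matrix, had levels of -6.74, -2.09 and -3.28, and was 25.2-fold higher with 8 than with 7 factors, the widest gap between the induced cultures in these pathway lists.

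Among ADAM sheddases, the membrane-anchored relatives that release ectodomains, 1 of 8 was higher (12.5%) and 2 lower (25.0%) with 7 factors, near the 19.1% and 27.1% of all genes, and 3 were higher (37.5%) and 2 lower (25.0%) with 8, beside 17.8% and 27.5%. Adam8, a sheddase of leukocytes and other cells, was 35.7-fold and 25.1-fold lower, and Adam15 was 4.56-fold and 3.28-fold higher. ADAMTS-like proteins, which lack the protease domain, had 3 of 6 higher in each culture (beside 19.1% and 17.8% of all genes). Among the higher were Thsd4 (5.49-fold and 4.63-fold) and Adamtsl1 (at least 5.58-fold and at least 9.60-fold). With 7 factors 0 were lower, beside 27.1% of all genes, and with 8 factors 1 was (16.7%, beside 27.5%). The lower one, Adamtsl4 (2.01-fold), would turn positive without scaling. Of the proprotein convertases, which activate membrane-type MMPs, 1 of 4 was higher and 1 lower in each (25.0% both ways, near the shares over all genes); Furin was 2.00-fold and 2.35-fold lower (positive without scaling) and Pcsk6 2.35-fold and 3.04-fold higher. The procollagen C-proteinase Bmp1 differed by -0.37 and -0.34.

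**Figure D5:**
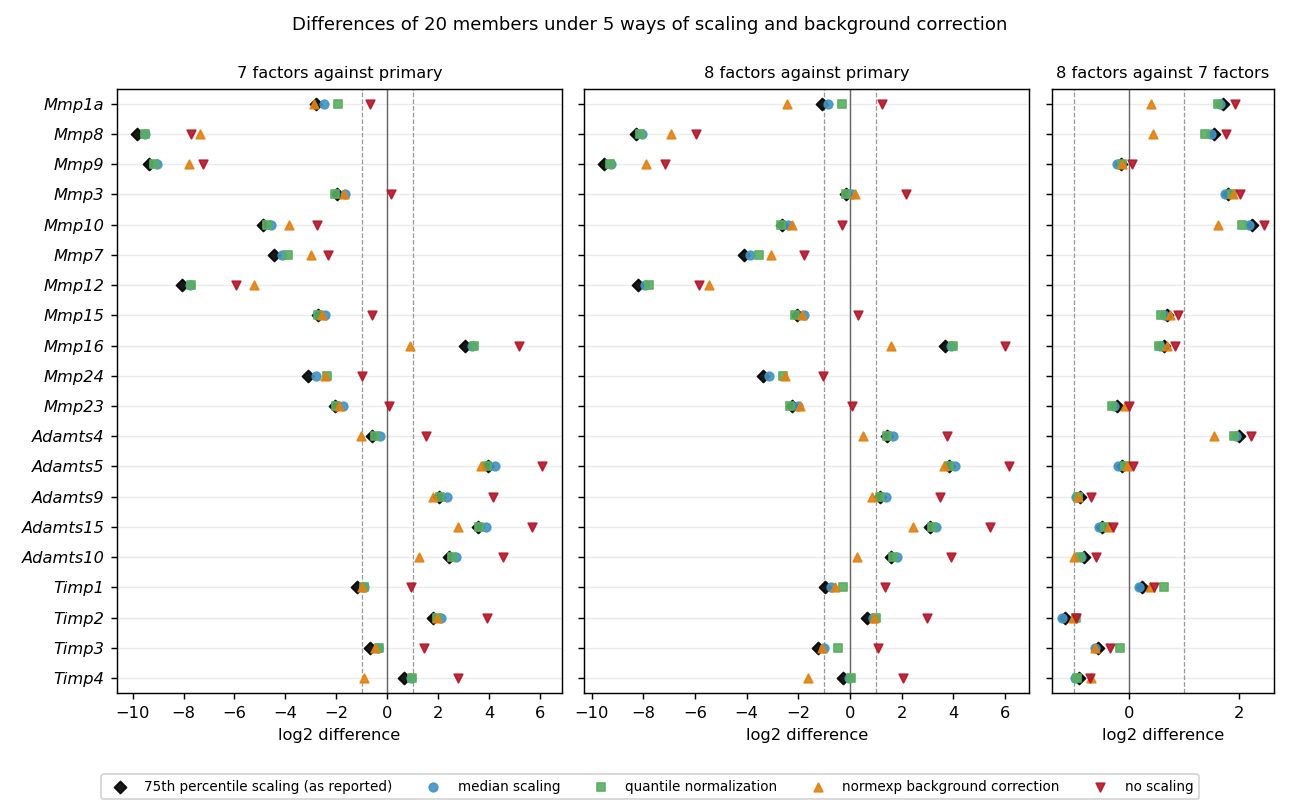
Log2 differences of the 20 members given in full under 5 ways of scaling and background correction, in the 3 comparisons. Black diamonds are the values reported, and red triangles, without scaling, lie to the right of them by 2.12 (7 factors against primary), 2.33 (8 factors against primary) or 0.21 (8 against 7 factors) where both arrays were measured. Mmp8, Mmp9, Mmp12, Mmp7, Mmp10 and Mmp24 stay left of 0, and Adamts5, Adamts15, Adamts9, Adamts10, Mmp16 and Timp2 right of 0, in both comparisons with primary cells under all 5.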

How the data were processed

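Total RNA of 3 cultures was hybridised to 1 array each, and groups come from the sample titles. The deposited array files hold intensity values. Per the file headers, background and within-array trends were removed by Feature Extraction 11.5.1.1, while the submitters' processing notes name version 10.5. The deposited value table equals these processed signals, unscaled, although the submitters' design text names a 75th percentile shift. The deposited files also carry other columns of 0 or 1 that mark outlying, saturated or clearly detected spots; no member probe was saturated.

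Computed here, with Python 3.11.15 (numpy 2.4.6, pandas 2.3.3), R 4.3.3 and limma 3.58.1: control and outlying spots were left out, log2 values of repeated probes were averaged, and each array was scaled to its own 75th percentile. This left 41171 probes, of which 27815 (67.6%) were named through RefSeq accessions (GRCm38.p6, names and order only). A gene is its brightest probe over the 3 arrays. If it was well above background on 1 array of a pair, the other value was replaced by the higher of its own level and the lowest level well above background there, which gives a bound ("at least"). If another probe of the gene was above background there, no difference was taken. Processing was tested on simulated arrays.

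Every member is named; those given in full are the TIMPs, genes 4-fold apart from the primary culture in either induced culture, and genes 2-fold apart between induced cultures. Members and lists were chosen with earlier results of these data known. From the pathway lists the text names up to 4 genes with the largest differences and others chosen after their values were seen. Alternatives were median scaling, quantile normalization, no scaling, normexp (offset 50, on the median spot signal in place of the mean), no filter, detection on both arrays, a common floor, the mean of all probes and the deposited value table. Slide could not be a block, because each comparison with primary cells spans 2 slides with 1 group on each.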

Additional observations from a re-analysis of the deposited data

Results flagged for a closer look

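Adamts4 was the gene whose induced cultures lay on opposite sides of the primary culture by more than the scanner error, at -0.58 with 7 factors and 1.42 with 8 factors on the log2 scale. Both differences use the same primary array, and without scaling both are positive (1.54 and 3.75). The direct difference, 2.00 between 8 and 7 factors, ranged from 1.54 (normexp) to 2.21 (no scaling) over the alternatives. With 1 array per culture the difference was not tested.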

How the results depend on the processing

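Leaving out the scaling changed most. It moved the members higher and lower than primary cells to 22 and 5 (7 factors) and 26 and 5 (8 factors). All genes moved to 11208 and 1140 of 16152 (7 factors), and to 11715 and 978 of 16161 (8 factors). Member medians became 1.47 and 2.02, beside 1.94 and 2.11 over all genes. Among the 20 members given in full, differences under 2-fold turned from negative to positive for Adamts4 and Timp3 with 7 factors. With 8 factors those of Mmp3, Timp1 and Timp4 did. Of the called ones among the 20, leaving out the scaling reversed Mmp3 (0.16), Mmp23 (0.08) and Timp1 (0.92) with 7 factors. With 8 factors it reversed Mmp1a (1.25), Mmp15 (0.29), Mmp23 (0.08) and Timp3 (1.09). Of the other called members it reversed Adamts3, Adamts14, Adamts16 and Mmp17 with 7 factors and Adamts14, Adamts16, Adamts18 and Mmp17 with 8. The median of the members against primary cells was otherwise -0.81 and -0.23 (normexp, 7 and 8 factors), -0.69 and -0.37 (no filter), and, with 7 factors, 0.00 (quantile), -0.02 (detection on both arrays), -0.08 (common floor) and -0.51 (mean of probes), beside -0.29 and 0.00 as reported. Between the induced cultures, the higher members numbered 3 with normexp and 3 with a common floor against 5, the lower ones 0 with quantile normalization, 0 without scaling and 2 without a filter against 1, and the median was 0.18 without scaling. The deposited value table gave the same values. Of the 25 and 23 calls against primary cells, 21 and 20 were kept under median scaling, 22 and 20 under quantile normalization, 21 and 19 under normexp and 15 and 14 without scaling. Signal over background limits the dim members most: levels below -5.15 on an induced array could not have been read as well above background on the primary one. No paired analysis was possible because each group has 1 array, and for the same reason none could be left out.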
